A study of Homo sapiens with 14 samples.

Results

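The genes described here are the 6 LXR and cholesterol efflux genes ABCA1, ABCG1, NR1H2, NR1H3, MYLIP and SOAT1 in PANC-1, an established human pancreatic cancer cell line, exposed to proanthocyanidins. They were chosen by gene symbol. All 6 were present among the 28120 genes of the deposited read table and the 25447 genes of the RPKM table (reads scaled by transcript length and by mapped reads), and 5 of them were among the 15181 genes with enough reads to test. Proanthocyanidins, abbreviated PA, are plant polyphenols built from flavan-3-ol units. The study sequenced RNA from 7 groups with 2 libraries each. These were cells in DMSO, the vehicle, at 0 h, 3 h, 12 h and 24 h, and cells in PA at 20 µg/ml for 3 h, 12 h and 24 h. All groups shared one line at passage 3 to 5, one medium with fetal bovine serum, and one dose of PA. The 2 libraries of a group were described as biological replicates, but no label states that they came from separate cultures, so the p-values measure the spread between these libraries only.

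The liver X receptors LXR-alpha, encoded by NR1H3, and LXR-beta, encoded by NR1H2, are nuclear receptors that bind oxysterols, the oxidised derivatives of cholesterol. They pair with a retinoid X receptor on direct repeats of a hexamer in DNA and raise the transcription of genes that move cholesterol out of the cell. ABCA1 and ABCG1 encode transporters that pass cholesterol to apolipoprotein A-I and to high density lipoprotein, MYLIP encodes the ubiquitin ligase IDOL that sends lipoprotein receptors for degradation, and SOAT1 encodes the enzyme that esterifies cholesterol for storage in lipid droplets.

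The total per library ran from 26403984 to 35213154 reads. The normalisation factors of the 2 PA libraries at 24 h were 0.826 and 0.839, below those of the other 12 libraries. The keratins KRT8, KRT18 and KRT19, which mark the epithelial line, were read in every library. The summed level of 10 markers of the line was 7207 to 8239 CPM (counts per 1e+06 reads, normalised) in the DMSO libraries, and 20328 to 23634 CPM in the PA libraries at 24 h. KRT8, KRT18, KRT19 and VIM made up most of this sum. The epithelial markers EPCAM and CDH1 were low, with 107 to 224 and 8 to 38 reads per library. Neither differed between PA and DMSO at 3 h, 12 h or 24 h (edgeR, adjusted p under 0.05). The 12 macrophage and leukocyte markers together reached 34.0 to 48.7 CPM with DMSO, and 84.2 and 84.3 CPM with PA at 24 h, while CD163 and CD3E had at most 3 reads in every library. Of the 12, 3 had enough reads to test, and CD68, a lysosomal glycoprotein of macrophages, made up most of the sum, at 34.3 ± 4.3 CPM with DMSO and 77.2 ± 0.74 CPM with PA at 24 h (SD, n = 2). The part of these markers in the results below was not tested. A change in RNA per cell and a change in the share of cells that express a gene cannot be told apart in bulk RNA.

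In brief, NR1H2 and NR1H3 transcripts were higher with PA than with DMSO at 12 h and 24 h, and those of ABCA1 were lower at 12 h. ABCG1 was at most at 6 reads in any library. MYLIP and SOAT1 did not pass edgeR's test at any time in the fit of all 14 libraries without a correction, and the direction for SOAT1 depended on a correction for base composition and length.

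The promoter of ABCA1 is printed because this gene is a textbook LXR target. In the fit of all 14 libraries without a correction it was also the only one called lower with PA than with DMSO, at 12 h. The promoter of NR1H2 is printed because this receptor had the highest transcript level and rose. Promoter windows of 300 bases came from RefSeq on GRCh38.p14 and matched 5 of the 6 genes by symbol. Each ran from 250 before to 50 after a transcription start in RefSeq. ABCG1 had no entry. The ABCA1 window lies at chr9:104928106-104928405 on the minus strand, and the NR1H2 window at chr19:50376207-50376506 on the plus strand. These starts differ from the gene starts of GENCODE 29 given below. There NR1H2 runs from 50329653 to 50382982, so its window lies inside the gene. ABCA1 starts there at 104928237, which is within its window. Both are written 5′ to 3′ along the gene, and capitals mark the motif matches described next.
ABCA1: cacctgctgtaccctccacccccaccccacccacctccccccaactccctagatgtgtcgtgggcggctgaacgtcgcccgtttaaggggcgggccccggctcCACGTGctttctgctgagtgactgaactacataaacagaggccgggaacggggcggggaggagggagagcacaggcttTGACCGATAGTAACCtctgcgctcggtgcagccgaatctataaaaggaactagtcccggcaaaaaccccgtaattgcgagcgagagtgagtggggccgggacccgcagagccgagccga
NR1H2: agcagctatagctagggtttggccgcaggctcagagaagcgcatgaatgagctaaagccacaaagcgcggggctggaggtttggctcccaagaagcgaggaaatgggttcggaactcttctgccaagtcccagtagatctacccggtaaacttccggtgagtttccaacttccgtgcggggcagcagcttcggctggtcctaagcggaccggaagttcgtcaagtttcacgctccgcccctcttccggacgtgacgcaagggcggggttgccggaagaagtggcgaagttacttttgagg

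The motifs searched on both strands were the direct repeat of GGTNA, 5 bases of any kind and GGTNA, of the kind that LXR with a retinoid X receptor binds, the sterol regulatory element core TCACNCCAC, and the E-box CACGTG. They do not overlap in the ABCA1 window. The direct repeat was found once, on the minus strand of the ABCA1 window, from base -69 to base -55 counted from the RefSeq start. The E-box was found once, in the same window, from -147 to -142. Of 35116 windows of the same length, 0.626% held the direct repeat, 1.13% the sterol regulatory element core and 7.26% the E-box. The windows of NR1H2, MYLIP and SOAT1 and the 4 windows of NR1H3 held none of these letters. SREBF2, the gene of the regulator of cholesterol synthesis, held the sterol regulatory element core from -133 to -125 in its own window. Its site is printed because its transcripts rose (values below). Among the genes of the lists described below, PNPLA2 and SULT2A1 also held this core. PNPLA2 rose by 0.75 at 12 h and 0.83 at 24 h on the log2 scale. After a correction for base composition and length it stood at -0.06 and 0.0009. SULT2A1 had at most 2 reads in any library. A link between the core and transcript levels was not tested. The plus strand of the SREBF2 site at chr22:41832964-41832988 reads as follows, with the core in capitals.
SREBF2: acgcgccaTCACCCCACgcaccgct

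Levels between genes were compared per length, in RPKM over the 14 libraries. NR1H2 had the highest level, with a mean of 37.7 RPKM and a range of 25.0 to 59.8 RPKM. SOAT1 followed at 9.5 RPKM (6.56 to 14.4 RPKM), and NR1H3 at 2.25 RPKM (1.27 to 4.22 RPKM). MYLIP and ABCA1 were near the lower end, at 0.55 RPKM (0.24 to 0.75 RPKM) and 0.177 RPKM (0.08 to 0.32 RPKM), and ABCG1 was last at 0.00857 RPKM (0 to 0.03 RPKM). The ranges of MYLIP and ABCA1 overlapped, and those of all other neighbours in this order did not. Of the 2 receptors, NR1H2 was therefore the more abundant transcript in every library. With DMSO the ratio of NR1H2 to NR1H3 in RPKM was 18.5 and 18.7 at 0 h and 20.8 and 22.2 at 3 h. It was 18.3 and 20.6 at 12 h and 12.7 and 14.9 at 24 h. With PA it was 26.6 and 21.4 at 3 h, 14.7 and 15.5 after 12 h and 13.1 and 14.4 after 24 h. At 24 h the PA values lay between those of DMSO.

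**Figure D1:**
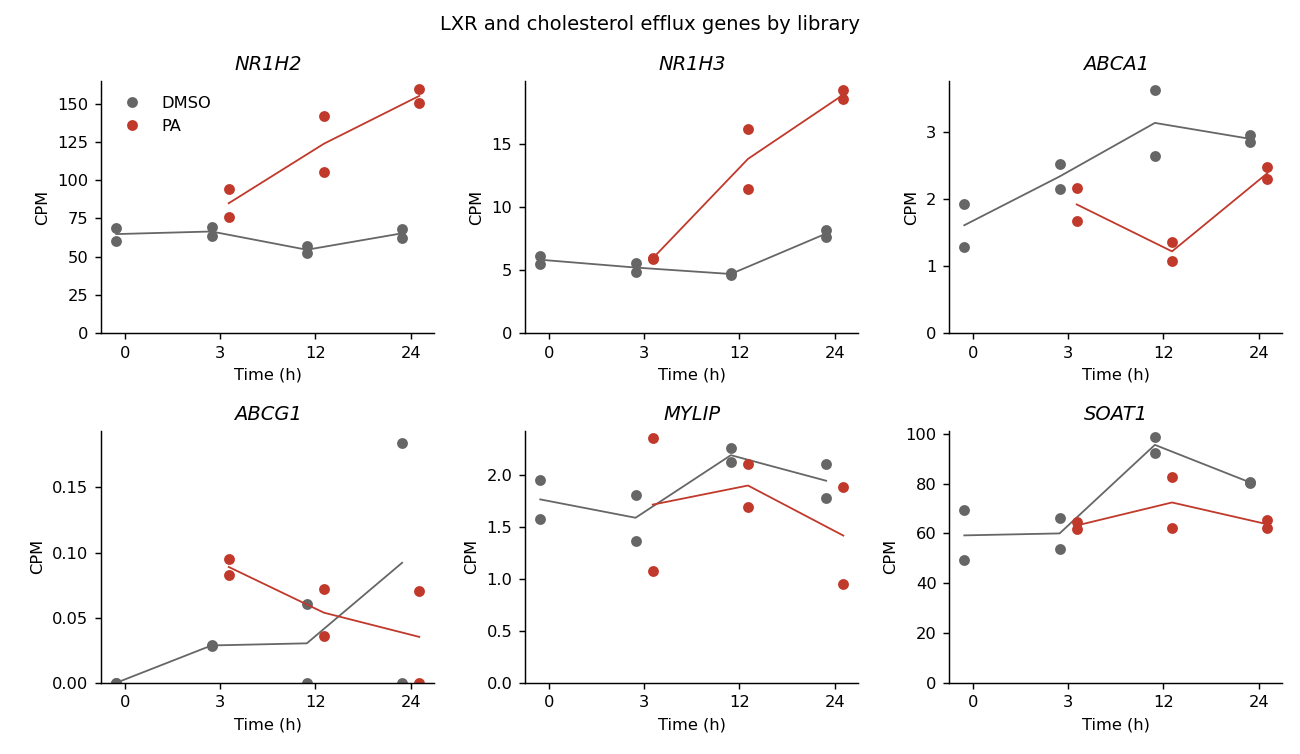
Level of each gene in CPM (vertical axis, linear, from 0) by time in hours (horizontal axis, evenly spaced and not to scale); points are libraries, grey for DMSO and red for PA, and lines join the means of 2 libraries. NR1H2 and NR1H3 with PA lie above DMSO at 12 h and 24 h, ABCA1 with PA lies below DMSO at 12 h, and ABCG1 stays under 0.19 CPM throughout.

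PA and DMSO were first compared at 3 h, the earliest time with PA. None of the 5 tested genes passed edgeR's quasi-likelihood test (adjusted p under 0.05) at 3 h, where 1.72% of all tested genes did. One, NR1H2, had an unadjusted p under 0.05, and DESeq2 also called 0. NR1H2 stood at 94.1 and 75.6 CPM with PA and 69.5 and 63.2 CPM with DMSO, a log2 difference of 0.35 ± 0.16 (SE; adjusted p = 0.287 by edgeR). NR1H3 stood at 5.94 and 5.90 CPM with PA and 5.58 and 4.81 CPM with DMSO, a log2 difference of 0.19 ± 0.19. The PA libraries were above the DMSO libraries for these 2 receptors, which was the case for 26.7% of all tested genes. For ABCA1, MYLIP and SOAT1 the groups overlapped, with log2 differences of -0.28, 0.12 and 0.07.

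At 12 h, 3 of the 5 tested genes passed, 2 higher and 1 lower, where 48.5% of all tested genes passed (24.4% higher and 24.1% lower), so the count is near the background. NR1H2 lies on chromosome 19 (50329653 to 50382982, plus strand, GRCh38, GENCODE 29; ENSG00000131408.12). It stood at 142.0 and 105.5 CPM with PA and at 52.1 and 56.9 CPM with DMSO. Both PA libraries were above both DMSO libraries, and replicate 1 was the higher of the PA pair. NR1H2 rose 2.27-fold, by 1.18 ± 0.16 on the log2 scale (adjusted p = 0.000138 by edgeR). Its longest transcript is 1998 nt long with 63.0% G and C, against medians of 3084 nt and 48.8% over the tested genes. After the counts of each library were corrected for the GC content and length of its genes, the difference was 0.42 (adjusted p = 0.00241), in the same direction and past the threshold.

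NR1H3 lies on chromosome 11 (47248300 to 47269032, plus strand; ENSG00000025434.17), and 5.39% of its exon length overlaps ACP2 on the opposite strand, whose reads cannot be told apart from its own where strand was not used in counting. At 12 h NR1H3 stood at 16.2 and 11.4 CPM with PA and at 4.76 and 4.61 CPM with DMSO. The PA libraries were more than double either DMSO library, so the groups did not overlap. NR1H3 rose 2.95-fold, by 1.56 ± 0.19 on the log2 scale (adjusted p = 5.45e-05 by edgeR), and by 1.15 after the GC and length correction (adjusted p = 2.65e-05). On the log2(RPKM + 1) scale, which understates changes of low genes, it rose by 0.95 (adjusted p = 0.000256 by limma).

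ABCA1, which exports cholesterol and phospholipid to lipid-poor apolipoprotein A-I, lies on chromosome 9 (104781002 to 104928237, minus strand; ENSG00000165029.14). Its reads were few, from 30 to 106 per library. At 12 h it stood at 1.08 and 1.36 CPM with PA and at 3.63 and 2.64 CPM with DMSO. PA replicate 1 at 12 h held the lowest level of ABCA1 among the 14 libraries and DMSO replicate 1 at 12 h the highest, and the groups did not overlap. With DMSO at 0 h it had stood at 1.29 and 1.93 CPM, levels that overlapped those of PA at 12 h. The log2 difference of DMSO at 12 h from DMSO at 0 h was 0.95 ± 0.28 (adjusted p = 0.103 by edgeR). Against DMSO at 12 h, ABCA1 fell 2.56-fold with PA, by 1.36 ± 0.29 on the log2 scale (adjusted p = 0.00204 by edgeR). The fall passed the test under each of 13 alternatives run, with log2 differences between -1.58 and -0.21 and adjusted p between 0.000187 and 0.0317. The smallest of these sizes, -0.21, was on the log2(RPKM + 1) scale, and the value after the GC and length correction was -0.96 (adjusted p = 0.0115).

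SOAT1 and MYLIP did not pass at 12 h. SOAT1, on chromosome 1 (179293714 to 179358680, plus strand; ENSG00000057252.11), stood at 62.1 and 82.8 CPM with PA and at 98.8 and 92.4 CPM with DMSO. The groups did not overlap, and the log2 difference was -0.40 ± 0.18 (adjusted p = 0.0782 by edgeR). Without PA replicate 2 at 12 h it was -0.62 (adjusted p = 0.00837). SOAT1 has 39.97% G and C over 6861 nt, and after the GC and length correction it was higher with PA by 0.51 (adjusted p = 0.00475), so no direction is given for it. MYLIP, on chromosome 6 (16129125 to 16148248, plus strand; ENSG00000007944.13), stood at 1.69 and 2.11 CPM with PA and at 2.26 and 2.12 CPM with DMSO, a log2 difference of -0.21 ± 0.38 (adjusted p = 0.679). It rests on 47 to 70 reads in each of these libraries. Both PA libraries were below both DMSO libraries for ABCA1, SOAT1 and MYLIP, as for 37.8% of all tested genes, and above them for the 2 receptors, as for 37.3%.

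At 24 h, 2 of the 5 tested genes passed, both higher, where 54.6% of all tested genes passed and 27.2% were higher. NR1H2 stood at 150.7 and 159.4 CPM with PA and at 62.3 and 68.1 CPM with DMSO. It rose 2.38-fold, by 1.25 ± 0.16 on the log2 scale (adjusted p = 5.65e-05 by edgeR), and by 0.44 after the GC and length correction (adjusted p = 0.00115). NR1H3 stood at 19.2 and 18.5 CPM with PA and at 8.17 and 7.60 CPM with DMSO. It rose 2.40-fold, by 1.26 ± 0.18 (adjusted p = 0.000104), and by 0.87 after the correction (adjusted p = 0.000112). The groups did not overlap for either receptor, as for 39% of all tested genes in that direction.

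ABCA1 at 24 h stood at 2.29 and 2.48 CPM with PA and at 2.95 and 2.84 CPM with DMSO. The PA libraries were again below the DMSO libraries, as for 40% of all tested genes, but by less than at 12 h. The log2 difference was -0.28 ± 0.27 (adjusted p = 0.40 by edgeR), and it was 0.16 after the GC and length correction (adjusted p = 0.633). On the log2(RPKM + 1) scale it was -0.12 and passed (adjusted p = 0.0490 by limma), where the median of all genes stood at -0.10, so that relative to this median it was -0.02. The RPKM of ABCA1 in PA replicate 1 at 24 h, 0.12, was 0.784 of the level implied by its 65 reads, with a rounding of up to 4.17%. In the other 13 libraries this ratio for ABCA1 was 0.968 to 1.03. Over all genes with at least 20 reads and 0.1 RPKM in every library, 0.769% of values were off by over 20%.

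SOAT1 at 24 h stood at 62.1 and 65.3 CPM with PA and at 80.7 and 80.3 CPM with DMSO, a log2 difference of -0.34 ± 0.18 (adjusted p = 0.124 by edgeR). The groups did not overlap. The difference was 0.56 after the GC and length correction (adjusted p = 0.00185), and with only the 4 libraries at 24 h it was -0.36 (adjusted p = 0.0211). In the RPKM table SOAT1 passed as lower by limma under each of 3 settings, by -0.50 to -0.54 at 12 h (adjusted p from 0.0339 to 0.0499) and by -0.59 to -0.65 at 24 h (adjusted p from 0.0142 to 0.0225), where relative to the median of all genes it was -0.36 to -0.49. MYLIP stood at 0.95 and 1.88 CPM with PA and at 1.78 and 2.11 CPM with DMSO, with overlapping groups and a log2 difference of -0.45 ± 0.39 (adjusted p = 0.341). Its 2 PA libraries differed 1.98-fold from each other at 24 h and 2.19-fold at 3 h, the widest replicate gaps among the 5 tested genes. ABCG1, on chromosome 21 (42199689 to 42297244, plus strand; ENSG00000160179.17), had 0 reads in 5 of 14 libraries and 1 to 6 in the others, and no fold is given. In DMSO replicate 1 at 0 h, 0 reads allow a level of up to 0.111 CPM, taken as 3 reads and covering counting error only.

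**Figure D2:**
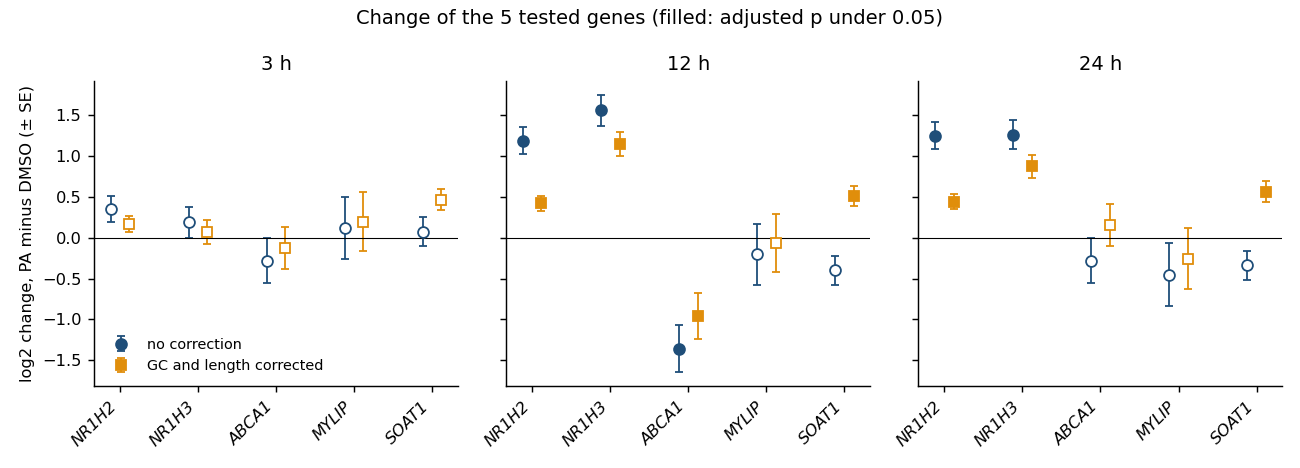
Log2 difference of PA minus DMSO (vertical axis) with its standard error for the 5 tested genes at 3 h, 12 h and 24 h, without correction (blue circles) and after the GC and length correction (orange squares); filled symbols have an adjusted p under 0.05 and the black line is 0. The receptors stay above 0 at 12 h and 24 h under both, NR1H2 at 0.42 and 0.44 after correction, while SOAT1 changes sign at 12 h and 24 h.

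The effect of PA was then compared between times, since a call at one time and not at another is no test of a difference. From 3 h to 12 h, 1 of the 5 tested genes passed, where 2.79% of all tested genes did and 2.1% in the upward direction. This was NR1H3, whose log2 difference grew by 1.37 ± 0.26 (adjusted p = 0.0182 by edgeR). The call was lost without DMSO replicate 1 at 3 h, PA replicate 1 or 2 at 3 h, or DMSO replicate 1 or 2 at 12 h, with adjusted p from 0.0555 to 0.107 and sizes from 1.26 to 1.37. The change for NR1H2 was 0.83 ± 0.23 (adjusted p = 0.0657) and that for ABCA1 was -1.08 ± 0.40 (adjusted p = 0.135). Without PA replicate 2 at 12 h, NR1H2 passed at 1.03 (adjusted p = 0.00119), ABCA1 at -1.25 (adjusted p = 0.0490) and SOAT1 at -0.70 (adjusted p = 0.0307).

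From 3 h to 24 h, 2 of the 5 passed, where 14.4% of all tested genes did and 8.24% in the upward direction. The log2 difference grew by 0.90 ± 0.23 for NR1H2 (adjusted p = 0.0217 by edgeR) and by 1.07 ± 0.26 for NR1H3 (adjusted p = 0.0175). After the GC and length correction the value for NR1H2 was 0.27 (adjusted p = 0.169). Both calls were lost when DMSO replicate 1 or PA replicate 2 at 3 h, or either DMSO library at 24 h, was left out, and that of NR1H2 also without PA replicate 2 at 24 h, with adjusted p from 0.0559 to 0.110. From 12 h to 24 h edgeR called 0 of the 5, where 0.422% of all tested genes passed; 1 had an unadjusted p under 0.05, and DESeq2 called 0. That gene was ABCA1, whose log2 difference moved by 1.08 ± 0.40 (adjusted p = 0.364). These differences share their libraries with the comparisons at each time.

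Each arm was also followed through time. In DMSO against 0 h, edgeR called 0 of the 5 at 3 h, 12 h and 24 h, where 0%, 1.46% and 2.46% of all tested genes passed. At an unadjusted p under 0.05 the counts were 0, 2 and 3, and DESeq2 called 0, 1 and 0. ABCA1 stood at 1.29 and 1.93 CPM at 0 h, and its log2 differences from 0 h were 0.53 ± 0.28 at 3 h, 0.95 ± 0.28 at 12 h (adjusted p = 0.103) and 0.84 ± 0.28 at 24 h (adjusted p = 0.134). Both DMSO libraries at each later time were above both at 0 h for ABCA1, as for 12.5% of all tested genes at 3 h, 30% at 12 h and 27.7% at 24 h. SOAT1 stood at 69.2 and 49.2 CPM at 0 h and was higher by 0.69 ± 0.18 at 12 h (adjusted p = 0.0711 by edgeR); this is the gene that DESeq2 called (adjusted p = 0.0148). NR1H2 differed from 0 h by 0.04, -0.25 and 0.01 at the 3 times. NR1H3 differed by -0.16, -0.31 and 0.44 ± 0.19 (adjusted p = 0.243 at 24 h by edgeR). At 24 h both DMSO libraries were above both at 0 h for NR1H3, as for 27.7% of all tested genes. This difference passed with the GC and length correction (adjusted p = 0.0423 by edgeR).

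In the PA arm, 2 of the 5 passed from 3 h to 12 h, both higher, where 15.5% of all tested genes passed and 8.18% were higher. ABCA1 did not pass, at -0.66 ± 0.29 (adjusted p = 0.148 by edgeR). NR1H3 rose by 1.22 ± 0.18 (adjusted p = 0.00106 by edgeR). NR1H2 rose by 0.55 ± 0.16 (adjusted p = 0.0367), a call lost after the GC and length correction (0.18, adjusted p = 0.183), without PA replicate 2 at 3 h (0.39, adjusted p = 0.324) and without PA replicate 1 at 12 h (0.31, adjusted p = 0.234). From 12 h to 24 h, 1 of the 5 passed, where 14.3% of all tested genes did and 6.59% were higher. ABCA1 rose 1.95-fold, by 0.97 ± 0.29 (adjusted p = 0.0426). The call was lost without any 1 of the 4 PA libraries at 12 h and 24 h (adjusted p from 0.0544 to 0.140), and after the GC and length correction the rise was 1.24 (adjusted p = 0.00634).

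Over the 14 libraries the log2 CPM of NR1H2 and NR1H3 had a Pearson r of 0.924 and those of ABCA1 and NR1H2 an r of -0.420; the points share 7 groups, and r is a description. Among 9613 tested genes with a mean of at least 5 CPM, the patterns most like NR1H2 were those of HSPB1 (r = 0.995), USF2 (0.994) and LONP1 (0.993). Those most like NR1H3 were ECH1, TSEN34 and PGP, each with r = 0.991. For ABCA1 the nearest were SLC25A40 (0.843), ZNF287 (0.784) and NAIP (0.782), and for SOAT1 they were SYPL1 (0.949), ATP6V1A (0.939) and NRAS (0.934). MYLIP was nearest to ZNF274 (0.784), C3orf67 (0.738) and ASTE1 (0.737). The nearest genes of the receptors followed them closely, while those of the low genes ABCA1 and MYLIP did so less.

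The genes around the receptors were then described by lists. Of all tested genes, 24.4% rose and 24.1% fell at 12 h, and 27.2% rose and 27.5% fell at 24 h. After the GC and length correction these shares were 22.5% and 17.6% at 12 h, and 27% and 22.4% at 24 h. No list was tested as a list, and each count is given beside these shares.

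Of 17 tested partners and coregulators of LXR, 6 rose and 7 fell at 12 h, and 4 rose and 7 fell at 24 h, with medians of 0.12 and 0.20 on the log2 scale against 0.01 and -0.01 over all genes. Members passed in both directions at both times, as did all genes, of which 24.4% rose and 24.1% fell at 12 h and 27.2% and 27.5% at 24 h. NCOR1, a corepressor, fell by 0.68 ± 0.12 at 12 h and by 0.99 ± 0.12 at 24 h (adjusted p = 4.24e-05 at 24 h), and NCOA1, a coactivator, fell by 0.54 ± 0.18 and 1.11 ± 0.19. The coactivator CREBBP fell by 0.56 ± 0.13 and 0.76 ± 0.14. GPS2, a subunit of the NCOR complexes, rose by 1.01 ± 0.22 and 1.46 ± 0.22. After the GC and length correction NCOR1, NCOA1 and GPS2 lost the call at 12 h and kept it at 24 h, and the list held 6 higher and 3 lower at 12 h and 7 higher and 4 lower at 24 h. The corrected shares of all genes were 22.5% higher and 17.6% lower at 12 h, and 27% and 22.4% at 24 h.

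Of 14 tested targets of LXR outside the 6 genes, 6 rose and 2 fell at 12 h, and 9 rose and 1 fell at 24 h, with medians of 0.75 and 1.18. Of all genes 24.4% rose and 24.1% fell at 12 h, and 27.2% and 27.5% at 24 h. ABCA1 thus stood on the other side of 0 from most of them at 12 h. The 2 that fell at 12 h were SMPDL3A, by 0.85 ± 0.22 (adjusted p = 0.00612 by edgeR), and LIMA1, by 0.85 ± 0.18 (adjusted p = 0.00225). SMPDL3A also fell at 24 h, by 0.72 ± 0.22 (adjusted p = 0.0130). After the GC and length correction SMPDL3A was at -0.29 and LIMA1 at -0.07 at 12 h, and neither passed. APOE, which carries cholesterol in lipoproteins, stood at 4.12 ± 0.55 CPM with DMSO and 23.4 ± 6.6 CPM with PA at 12 h (SD, n = 2), and rose by 2.50 ± 0.25 at 12 h and 2.96 ± 0.25 at 24 h (adjusted p = 3.04e-06 at 24 h by edgeR). APOC1, its neighbour in the apolipoprotein cluster, rose by 1.78 ± 0.41 and 2.45 ± 0.38. SREBF1, which encodes the regulator of fatty acid synthesis, rose by 2.01 ± 0.22 and 1.20 ± 0.21, and SCARB1, the receptor for high density lipoprotein, by 1.69 ± 0.16 and 1.89 ± 0.16. These 4 kept their calls after the GC and length correction, with which 6 of the list were higher at 12 h, 9 at 24 h and 0 lower at either time. With it 22.5% and 27% of all genes were higher and 17.6% and 22.4% lower at the 2 times.

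**Figure D3:**
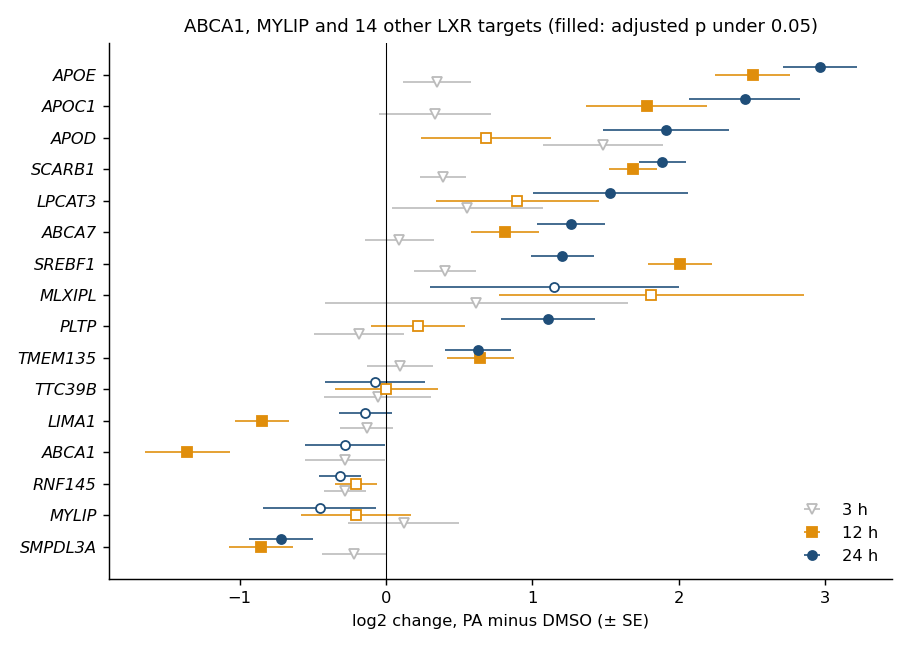
Log2 difference of PA minus DMSO (horizontal axis, with standard error) for ABCA1, MYLIP and 14 other LXR targets at 3 h (grey triangles), 12 h (orange squares) and 24 h (blue circles), ordered by the value at 24 h; filled symbols have an adjusted p under 0.05. APOE lies highest at 2.96 at 24 h, and ABCA1 lies lowest at 12 h, at -1.36.

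Of 6 tested genes that make or remove sterol ligands, 5 rose and 0 fell at both times, with medians of 2.13 and 1.87, where 24.4% and 27.2% of all genes rose. Those that rose include genes of cholesterol synthesis (EBP, DHCR7), bile acid synthesis (HSD3B7) and sterol sulfation (SULT2B1). EBP rose by 2.54 ± 0.18 at 12 h and 2.69 ± 0.18 at 24 h, DHCR7 by 2.69 ± 0.20 and 2.38 ± 0.19, and HSD3B7 by 2.40 ± 0.49 and 2.44 ± 0.44. SULT2B1 rose by 1.86 ± 0.36 at 12 h and 0.97 ± 0.33 at 24 h (adjusted p = 0.0219 by edgeR). After the GC and length correction 5 genes of the list were higher and 0 lower at both times, but not the same 5 at 24 h, where SULT2B1 was at 0.26 (adjusted p = 0.461). The oxysterol-forming hydroxylases were barely read, with at most 2 reads in any library for CH25H and CYP46A1 and at most 7 for CYP27A1. Of 12 tested genes of sterol sensing, 6 rose and 2 fell at 12 h, and 6 rose and 4 fell at 24 h, with medians of 0.50 and 0.37, and after the correction 5 were higher and 2 lower at each time. Of all genes 24.4% rose and 24.1% fell at 12 h, and 27.2% and 27.5% at 24 h. INSIG1, the sterol-dependent retention factor of the SREBP system, was the only listed gene called at 3 h, at 1.19 ± 0.18 (adjusted p = 0.00363 by edgeR), and it rose by 2.78 ± 0.19 at 12 h and 1.23 ± 0.18 at 24 h. SREBF2 rose by 1.53 ± 0.17 and 1.28 ± 0.16, and SQLE, the squalene epoxidase of cholesterol synthesis, by 1.65 ± 0.13 and 1.0 ± 0.13.

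Beside SOAT1, 9 genes were tested from a list of cholesterol esterification and ester hydrolysis. This list also held genes of triacylglycerol (DGAT1, DGAT2, PNPLA2) and of the lipid droplet coat (PLIN2, PLIN3). Its counts are therefore not those of cholesterol esters alone. Of the 9, 6 rose and 1 fell at 12 h, and 5 rose and 1 fell at 24 h, with medians of 0.75 and 0.63. At these times 24.4% and 27.2% of all genes rose. SOAT2, the second acyltransferase, had at most 1 read in any library. PLIN2, a lipid droplet coat protein, rose by 0.98 ± 0.14 and 1.54 ± 0.14, PLIN3 by 0.83 ± 0.14 and 0.87 ± 0.14, and LIPA, the lysosomal acid lipase, by 0.84 ± 0.16 and 0.99 ± 0.16. NCEH1, a cholesteryl ester hydrolase, fell by 1.19 ± 0.17 at 12 h and 0.63 ± 0.17 at 24 h. After the GC and length correction NCEH1 at 24 h was 0.12 (adjusted p = 0.294), PLIN3 lost its call at 12 h, and the list held 2 higher and 2 lower at 12 h and 3 higher and 1 lower at 24 h. The corrected counts of higher genes were near the corrected shares of all genes, 22.5% at 12 h and 27% at 24 h.

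Of 11 tested substrates and partners of MYLIP, 4 rose and 0 fell at each time, with medians of 0.20 and 0.23, where 24.4% and 27.2% of all genes rose. After the correction 6 were higher at 12 h and 8 at 24 h, where 22.5% and 27% of all genes were. MYLIP itself did not pass. SNX17, a sorting nexin that recycles lipoprotein receptors, rose by 0.92 ± 0.17 at 12 h and 1.0 ± 0.17 at 24 h. VLDLR, the receptor for very low density lipoprotein, was at 0.28 ± 0.18 at 12 h (adjusted p = 0.199 by edgeR) and rose by 0.97 ± 0.18 at 24 h. After the correction VLDLR was higher by 0.96 at 12 h (adjusted p = 0.00041) and by 1.65 at 24 h (adjusted p = 2.18e-06).

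Of 20 tested genes of intracellular cholesterol transport, 12 rose and 3 fell at 12 h, and 11 rose and 2 fell at 24 h, with medians of 0.40 and 0.57. At these times 24.4% and 27.2% of all genes rose and 24.1% and 27.5% fell. NPC1 and NPC2, which pass cholesterol out of the lysosome, rose by 0.56 ± 0.14 and 1.03 ± 0.20 at 12 h and by 0.83 ± 0.14 and 1.66 ± 0.20 at 24 h. TMEM97, an NPC1-binding protein, rose by 1.51 ± 0.14 and 1.33 ± 0.14, and ANXA6, an annexin, by 1.41 ± 0.17 and 1.48 ± 0.17. After the correction this list held 9 higher and 1 lower at 12 h and 11 higher and 0 lower at 24 h, and these 4 genes kept their calls. The corrected shares of all genes were 22.5% higher and 17.6% lower at 12 h, and 27% and 22.4% at 24 h.

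The relatives of the 2 transporters were few. Of 6 tested ABCA genes beside ABCA1 and ABCA7, 2 rose and 1 fell at 12 h, and 2 rose and 2 fell at 24 h, counts near the shares of all genes (24.4% and 24.1% at 12 h, 27.2% and 27.5% at 24 h). ABCA3 rose by 0.72 ± 0.14 and 0.94 ± 0.14 and ABCA2 by 0.73 ± 0.14 and 0.74 ± 0.14, while ABCA5 fell by 1.45 ± 0.34 and 1.16 ± 0.33. ABCA10 was at -0.86 ± 0.34 at 12 h (adjusted p = 0.0503) and fell by 0.82 ± 0.33 at 24 h (adjusted p = 0.0495). After the correction 0 of the 6 passed at 12 h and 1, ABCA3, at 24 h, with ABCA5 at -0.07 and 0.14 and ABCA10 at 0.29 and 0.25. ABCG2, the multidrug exporter, was at 0.07 ± 0.15 at 12 h (adjusted p = 0.719) and rose by 0.45 ± 0.15 at 24 h (adjusted p = 0.0216), and the correction gave 0.83 (adjusted p = 0.00192) and 1.19 (adjusted p = 7.02e-05).

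**Figure D4:**
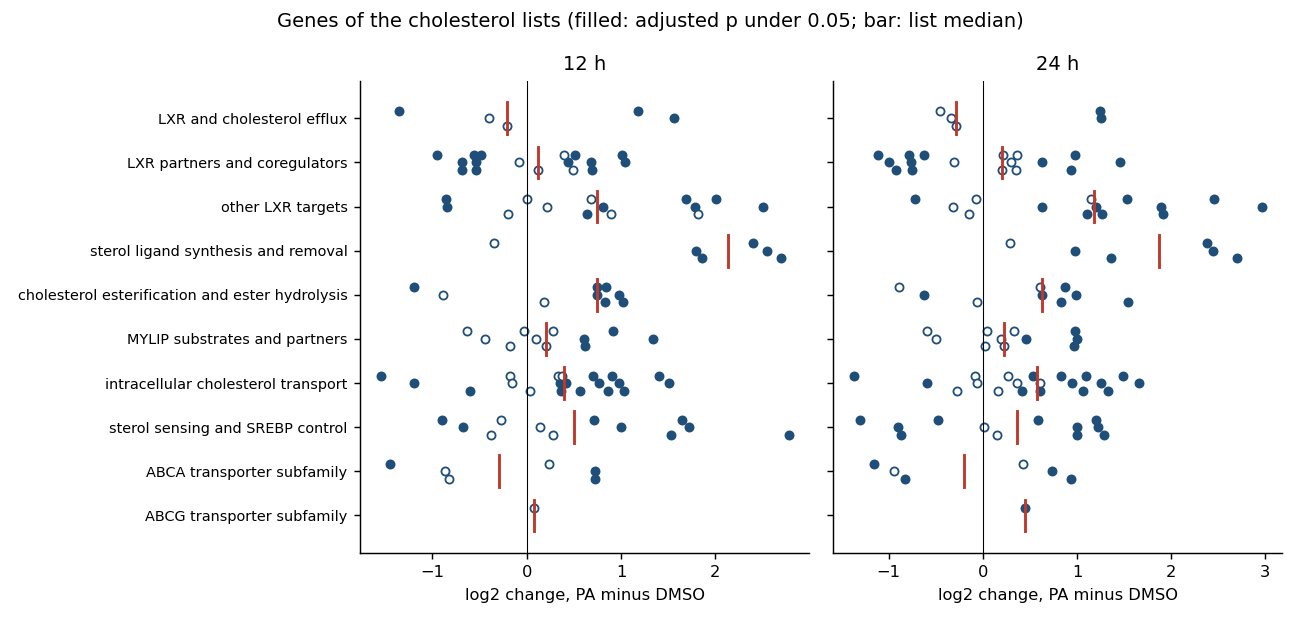
Log2 difference of PA minus DMSO (horizontal axis) at 12 h (left) and 24 h (right) for each tested gene of 10 lists (rows); filled points have an adjusted p under 0.05, red bars are list medians, and the vertical line is 0. The list of sterol ligand synthesis and removal has the highest median at both times, 2.13 and 1.87, and the 5 tested LXR and cholesterol efflux genes lie on both sides of 0.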

How the data were processed

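RNA was taken with Trizol from PANC-1 cells and read as 151 nt pairs on an Illumina NextSeq instrument, per the labels' protocols. TopHat2, edgeR and GRCh38 are named in the submitters' processing notes without a role; the counting tool, annotation release and strand setting were not given in the sources used here. The authors deposited a table of read counts per gene (28120 genes) and a table of RPKM values (25447 genes). From the counts, edgeR 4.0.16 (TMM scaling, filterByExpr, 1 mean per group, quasi-likelihood F test, two-sided, 7 residual degrees of freedom) was fitted to all 14 libraries, with Benjamini-Hochberg adjustment over 15181 genes in each of 11 comparisons and a threshold of 0.05. SE is the log2 difference divided by the square root of F. CPM are TMM-scaled. DESeq2 1.42.0, limma 3.58.1 on log2(RPKM + 1) or log2(RPKM + 0.1), other filters and scalings, a spline correction (5 degrees of freedom each) for GC content and transcript length from GENCODE 29, a replicate block and leaving out each library were alternatives. The correction had values for 99.3% of tested genes. The fit was tested on simulated data.

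The 6 genes and all lists were chosen with earlier results of these data known. Named were the 6 genes, from each other list up to 4 genes with the smallest p among those called at 12 h or 24 h plus those called at 3 h, and the 3 genes of highest Pearson r with each tested gene. SULT2B1, CH25H, CYP46A1, CYP27A1, SOAT2, SMPDL3A, LIMA1, VIM, EPCAM and CDH1 were named after their values were seen. DGAT1 and DGAT2 were named to state what their list held, and PNPLA2 and SULT2A1 because their windows held the sterol regulatory element core. Some genes that this rule would name are not reported here. Lists of fibroblast and endothelial markers held 2 and 1 tested genes; 1 fibroblast marker, COL1A1, was higher at 12 h and 24 h, and no endothelial marker passed.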

Additional observations from a re-analysis of the deposited data

Results flagged for a closer look

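The effect of PA on 3 results differed between times by the test of the difference itself (edgeR, adjusted over all tested genes). For NR1H3 the log2 difference was higher at 12 h than at 3 h by 1.37 and higher at 24 h than at 3 h by 1.07. For NR1H2 it was higher at 24 h than at 3 h by 0.90. Of all tested genes, 2.79% passed for 12 h against 3 h and 14.4% for 24 h against 3 h. Each of these calls was lost without certain single libraries, as given above. After the GC and length correction the value for NR1H2 was 0.27 (adjusted p = 0.169 by edgeR). Both PA libraries stood above both DMSO libraries for each receptor at 12 h and 24 h, as for 37.3% and 39% of all tested genes.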

How the results depend on the processing

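Of the 5 genes, 0 passed at 3 h under each of 15 alternatives, 2 to 4 at 12 h and 2 to 4 at 24 h; ABCA1 and MYLIP could not be tested with a minimum of 5 CPM or of 1 RPKM in 2 libraries. The GC and length correction gave SOAT1 differences of 0.51 at 12 h and 0.56 at 24 h (0.51 and 0.56 with the replicate block) and ABCA1 a difference of 0.16 at 24 h (0.16 with the block). With it, the PA effect on SOAT1 differed by 0.046 between 12 h and 3 h and by 0.098 between 24 h and 3 h, and that on ABCA1 by 0.29 between 24 h and 3 h. It called 1 gene for 24 h against 3 h, 1 each for DMSO at 12 h and 24 h against 0 h, and 2 for PA at 24 h against 12 h. On log2(RPKM + 1) the count at 24 h was 4. DESeq2 called 2 for 12 h against 3 h and 1 for DMSO at 12 h against 0 h. Equal replicate numbers gave no sign of pairing, since the residual correlation exceeded 0.1 in 2 of 21 combinations (range -0.218 to 0.244). With a replicate block 1 gene passed in PA at 12 h against 3 h, where NR1H2 was at 0.54 (adjusted p = 0.0506), and 0 in PA at 24 h against 12 h, where ABCA1 was at 0.97 (adjusted p = 0.0524); it changed no other count of the 5 genes. Beyond the corrections, the cause of these changes was not tested.

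Leaving out 1 library at a time gave 0 to 4 calls for 12 h against 3 h, 0 to 2 for 24 h against 3 h, 1 to 2 for PA at 12 h against 3 h and 0 to 2 for PA at 24 h against 12 h. It also turned the sign of differences, none of which passed once turned. For MYLIP the differences ran from -0.56 to 0.57 at 3 h, from -0.78 to 0.36 for 12 h against 3 h, from -1.15 to 0.10 for 24 h against 3 h, from -0.83 to 0.16 for 24 h against 12 h, from -0.37 to 0.032 for DMSO at 3 h against 0 h and from -0.31 to 0.82 for PA at 12 h against 3 h. For SOAT1 they ran from -0.065 to 0.25 at 3 h, from -0.14 to 0.28 for 24 h against 12 h, from -0.21 to 0.28 for DMSO at 3 h against 0 h, from -0.028 to 0.39 for PA at 12 h against 3 h and from -0.38 to 0.032 for PA at 24 h against 12 h. For NR1H2 they ran from -0.14 to 0.29 for 24 h against 12 h, and from -0.057 to 0.13 and -0.055 to 0.11 for DMSO at 3 h and 24 h against 0 h. For ABCA1 they ran from -0.17 to 0.19 for 24 h against 3 h.

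Over all tested genes, 261 passed at 3 h, between 118 and 1183 under other settings and 28 to 182 without 1 library. At 12 h 7363 passed, 3671 from only the 4 libraries of that time and 4462 to 8673 without 1 library. At 24 h the 4127 higher and 4169 lower became 2651 and 5478 on log2(RPKM + 1), and at 3 h the 21 higher and 240 lower became 271 and 385 with the GC and length correction. The count of 423 for 12 h against 3 h ran from 43 to 4957, that of 2192 for 24 h against 3 h from 665 to 3136, and that of 64 for 24 h against 12 h from 4 to 522. Against 0 h the DMSO counts of 0, 221 and 373 reached 11, 849 and 1374, with lows of 0, 4 and 27. In the PA arm 2359 ran from 449 to 5260 and 2171 from 780 to 4332.

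Reads limit ABCA1, MYLIP and ABCG1, the last of which was not tested. With 2 libraries a group, each left-out library leaves 1, which is assumed to vary like the other groups.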
